A study of Mus musculus with 9 samples.

Results

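In RXRa/RXRb-KO multipotent progenitors (MPPs), whose labels name the retinoid X receptors alpha and beta, 889 open chromatin regions ranked below their place in wild-type MPPs, out of 33950 regions analysed (2.62%). Each region had 1 of the 22690 strongest peaks in both wild-type MPP libraries and in neither knockout MPP library. That number is the length of the shortest of the 9 peak lists, and the 22690 strongest peaks of a library are called its top set here. Top-set peaks of the 9 libraries were merged by overlap, and regions in the top set of at least 2 libraries were analysed. Members were thus chosen by their KO and WT ranks in MPPs, which are given as a description, without a test. The reverse rule, top-set peaks in both knockout and neither wild-type MPP library, took 846 regions (2.49%).

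The libraries came from RXRa/RXRb-KO (KO) and wild-type (WT) C57BL/6 bone marrow and were made by ATAC-seq, which reads where a transposase can cut accessible DNA. There were 2 MPP KO, 2 MPP WT, 3 LT-HSC KO and 2 LT-HSC WT libraries, where LT-HSCs are long-term haematopoietic stem cells. Lineage-negative cells of pooled animals were enriched and then sorted, and the labels do not say whether replicates came from separate pools. The sources used here do not give how and in which cells the receptors were deleted, which exons were lost, or the age and sex of the animals.

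Retinoid X receptors are nuclear receptors that bind DNA as partners of other nuclear receptors, among them the retinoic acid receptors, the liver X receptors (LXRs), the peroxisome proliferator-activated receptors (PPARs) and the vitamin D receptor. LXR partners switch on cholesterol export genes such as Abca1 and Abcg1, and PPAR partners switch on genes of fatty acid uptake and storage such as Cd36 and Plin2. LT-HSCs are largely quiescent and renew themselves over the life of the animal. MPPs descend from them, divide more and begin to open myeloid and lymphoid genes.

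The promoters of 4 genes show where members lay at gene starts: Plin2 as an RXR list gene held in every library, Ms4a3 and Mpo as early myeloid genes, and Slc11a1 as a macrophage metal transporter. Mpo and Slc11a1 fall outside the naming rule and were chosen after their values were seen. Each sequence is a RefSeq window of the GRCm38.p6 assembly (mm10 shares its primary chromosomes), from 250 bases before to 50 bases after the start site, on the strand of the gene. Capitals mark AGGTCA (the core letters bound by RXR partners, here TGACCT on the other strand in Plin2) and CACGTG in Plin2, TTGCNNAA in Ms4a3, GAGGAAGT in Mpo and AGGTCA in Slc11a1. The windows are chr4:86670010-86670309 (minus strand) for Plin2, chr19:11640802-11641101 (minus) for Ms4a3, chr11:87793534-87793833 (plus) for Mpo and chr1:74374953-74375252 (plus) for Slc11a1.
Plin2: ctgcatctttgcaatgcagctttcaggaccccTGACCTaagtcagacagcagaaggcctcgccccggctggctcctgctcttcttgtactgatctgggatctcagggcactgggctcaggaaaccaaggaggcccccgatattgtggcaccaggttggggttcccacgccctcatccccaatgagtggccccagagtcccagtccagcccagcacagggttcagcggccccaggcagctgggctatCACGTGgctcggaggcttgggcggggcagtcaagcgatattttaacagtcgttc
Ms4a3: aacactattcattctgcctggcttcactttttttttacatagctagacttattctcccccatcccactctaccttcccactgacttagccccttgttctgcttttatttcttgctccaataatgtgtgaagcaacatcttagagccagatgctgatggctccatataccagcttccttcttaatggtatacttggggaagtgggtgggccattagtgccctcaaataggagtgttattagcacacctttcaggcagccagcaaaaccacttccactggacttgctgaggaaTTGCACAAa
Mpo: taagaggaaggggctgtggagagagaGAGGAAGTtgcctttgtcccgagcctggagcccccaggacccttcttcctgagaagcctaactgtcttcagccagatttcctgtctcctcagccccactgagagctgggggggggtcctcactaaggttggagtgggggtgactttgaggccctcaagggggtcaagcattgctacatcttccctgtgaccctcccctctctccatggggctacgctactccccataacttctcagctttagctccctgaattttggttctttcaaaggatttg
Slc11a1: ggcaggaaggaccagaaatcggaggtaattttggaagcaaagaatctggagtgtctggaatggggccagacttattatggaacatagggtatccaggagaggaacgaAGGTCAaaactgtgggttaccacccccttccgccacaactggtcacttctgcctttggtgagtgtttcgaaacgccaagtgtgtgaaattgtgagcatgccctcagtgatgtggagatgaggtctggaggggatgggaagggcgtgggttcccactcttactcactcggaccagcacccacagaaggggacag

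The member at the Plin2 promoter, chr4:86669265-86670233, ranked 25561 and 23078 in KO MPPs, against 19034 and 15673 in WT MPPs (rank 1 is the strongest peak). Its MPP summits lay 621 and 621 bases downstream of the start site in KO and 620 and 557 bases downstream in WT. The LT-HSC summits of the same region lay from 96 bases upstream to 113 bases downstream, so MPP and LT-HSC peaks were centred apart within it, and the MPP KO 1 peak began 423 bases downstream. The Ms4a3 member, chr19:11640684-11641187, at a gene of early granulocyte progenitors, ranked 27434 and 25323 in KO, against 19347 and 20188 in WT, with no LT-HSC peak. The Mpo member, chr11:87793290-87793979, at the myeloperoxidase gene, ranked 31006 and 26857 in KO, against 19891 and 22030 in WT, and 1 LT-HSC library, KO 4, held it at rank 56230. The Slc11a1 member, chr1:74374948-74375389, ranked 32342 and 23324 in KO, against 13287 and 19161 in WT, with no LT-HSC peak. In these 3 the MPP peaks covered the start site in all 4 libraries.

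Members still had peaks in KO MPPs. All 889 had a peak in the full list of MPP KO 2 and 887 had one in that of MPP KO 1, the exceptions being the regions at Dntt and Asb4. Their median rank was 26968 in MPP KO 1 (lowest 22714, highest 60010) and 27118 in MPP KO 2 (22712 to 76654), against 19510 in MPP WT 1 (9198 to 22687) and 19393 in MPP WT 2 (9375 to 22688). The limit of the top set fell at a −log10 q of 42.8 and 51.4 in the KO lists, and 55.1 and 48.8 in the WT lists. The authors' fold enrichment of the member peaks had medians of 12.1 and 13.1 in KO, against 16.7 and 15.5 in WT. Ranks past the top set come from lists of 78189 and 86353 peaks in KO, against 85471 and 80451 in WT, and lists of unequal length show no change by rank alone.

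**Figure D1:**
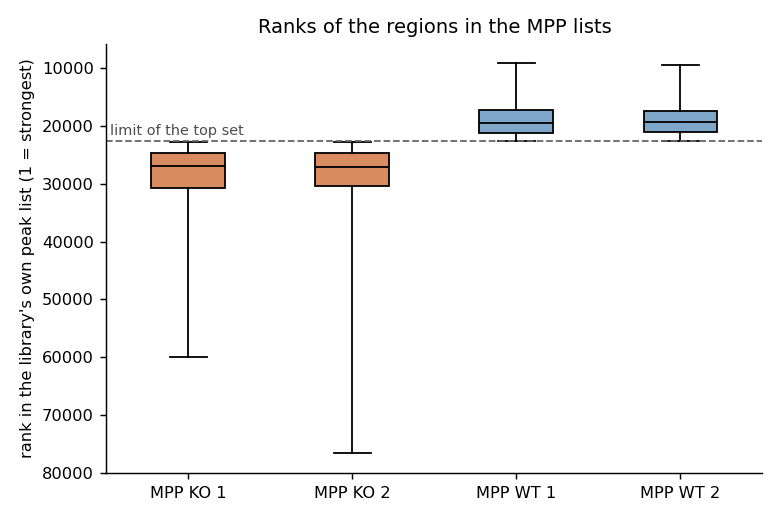
Ranks of the 889 regions in each MPP peak list (y axis, rank in the library's own list, strongest at the top); boxes give quartiles, the centre line the median and whiskers the full range. The KO boxes (2 regions lack a peak in KO 1) lie below the top-set limit and the WT boxes above it, which the rule fixed, with KO medians of 26968 and 27118 against WT medians of 19510 and 19393.

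Margins varied widely among members. The margin between the better KO rank and the poorer WT rank had a median of 5559 places, was over 5000 in 498 members, over 10000 in 135 and under 1000 in 19. Just inside the limit, the Cnppd1 region ranked 24686 and 23045 in KO, against 16862 and 22688 in WT. The Rfx8 region ranked 34501 and 30247 in KO, against 22687 and 19417 in WT, and the Cplane2 region 32810 and 23362, against 18933 and 22685. Just outside were regions at Celf3 (25819 and 22688 in KO, 18738 and 16521 in WT), Pla2g7 (22687 and 25427 in KO, 21262 and 19235 in WT) and Ccdc112 (24625 and 24143 in KO, 18712 and 22696 in WT). In all 6, both KO ranks were poorer than both WT ranks. The rule fixed this order for the regions inside the limit. Those outside missed the limit by only 2, 3 and 6 places, which nearly fixed it as well.

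The widest margin was at Dntt, which encodes the terminal transferase of developing lymphocytes. Its intragenic region, chr19:41039108-41039551, had no peak in MPP KO 1 and ranked 76654 in MPP KO 2, against 14660 and 14850 in WT. The Tnpo1 region, chr13:98902496-98903032, inside the gene of a nuclear import receptor, ranked 43306 and 45657 in KO, against 9556 and 9623 in WT. Regions near Asb4 (no peak and 70481 in KO, 21644 and 20069 in WT), Gm536 (51823 and 67853, against 19186 and 17845) and Ado, a thiol dioxygenase gene (60010 and 51258, against 17080 and 19407), followed, beside the Abca1 region below. These 6 were chosen by margin, and the smallest of their margins was 31851 places, at Ado. At Dntt and Asb4 the margin rests on MPP KO 2 alone, since MPP KO 1 gave no rank.

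Most members had no peak in any LT-HSC list, and LT-HSC presence was not used to choose them beyond the merging of peaks and the length of the top set. No LT-HSC library had any peak at 520 of the 889 (58.5%, 95% Wilson interval 55.2% to 61.7%), against 25 of 846 regions ranked up in KO (2.96%, 2.01% to 4.33%). Regions in the top set of all 4 MPP libraries whose mean WT rank lay in the members' range (from 15077 to 21881, the 5th to 95th percentile) lacked LT-HSC peaks in 325 of 4003 (8.12%), and all analysed regions in 2095 of 33950 (6.17%). Analysed regions could enter through LT-HSC top sets alone, so the share over all of them leans towards LT-HSC peaks by construction. The other sets were entered through MPP top sets. The intervals cover counting error only, regions are not replicates, and no test was run over the sets. LT-HSC lists were shorter than MPP lists, with 22690, 43126 and 71586 peaks in KO and 50023 and 22878 in WT. All sets were read against the same 5 lists, and the part of list length was not tested.

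The share was low in each LT-HSC library and in both genotypes. Any peak was held at 68 members in LT-HSC KO 1 (7.65%), 182 in KO 2 (20.5%) and 337 in KO 4 (37.9%), against 252 in WT 2 (28.3%) and 94 in WT 3 (10.6%). The same lists held 45.2%, 75.5% and 96.5% of the regions ranked up in KO MPPs in the LT-HSC KO libraries, and 90.7% and 59.1% in the WT libraries. For regions of like WT rank the shares were 39.9%, 68.5% and 90.8% in LT-HSC KO, and 83.6% and 56.0% in LT-HSC WT. Top sets, which have equal length in every library, held members at 7.65%, 7.99% and 7.65% in LT-HSC KO, and 8.44% and 10.5% in LT-HSC WT. The top-set shares thus spread little between the 5 libraries, and the full-list shares followed the length of the lists.

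**Figure D2:**
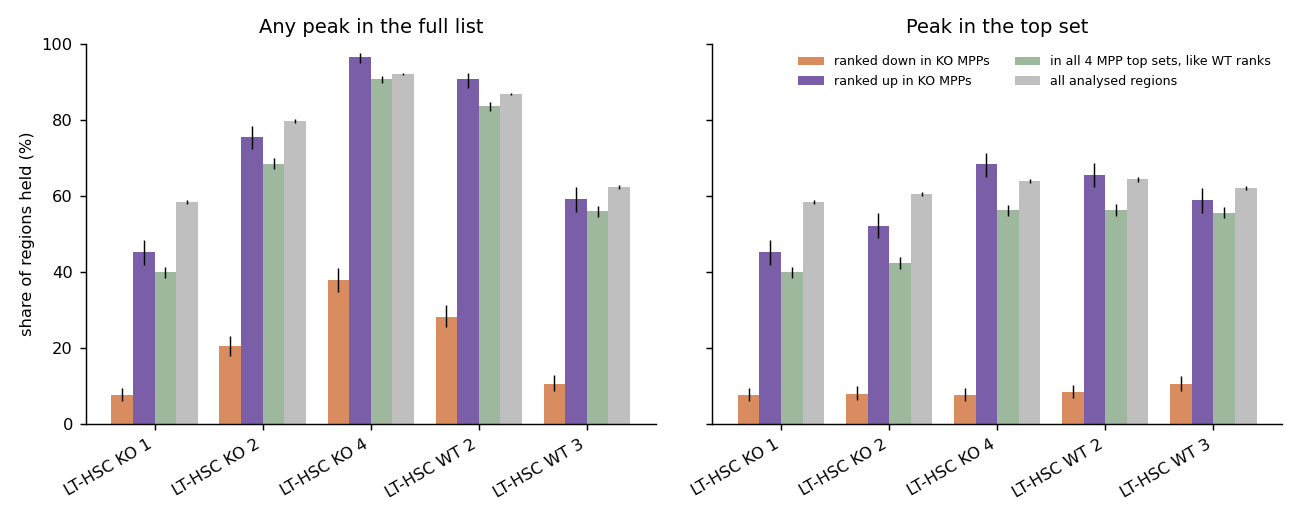
Share of regions (y axis, %) with any peak (left) or a top-set peak (right) in each of the 5 LT-HSC libraries, for members, regions ranked up in KO MPPs, regions of like WT rank in all 4 MPP top sets, and all analysed regions; bars are shares and lines 95% Wilson intervals. Members are the lowest set in every library, with top-set shares of 7.65% to 10.5%. Only the set of all analysed regions could be entered through LT-HSC top sets alone.

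By the number of LT-HSC top sets that held them, 725 members were in 0, 54 in 1, 45 in 2, 36 in 3, 22 in 4 and 7 in all 5. At least 3 held 65 members (7.31%, 5.78% to 9.21%), against 60.9% of regions ranked up in KO, 52.5% of regions of like WT rank and 61.6% of all analysed regions. The last share again includes regions that could enter through LT-HSC top sets alone. A two-sided Fisher's exact test per region, of presence in the 4 MPP against the 5 LT-HSC full lists, took 519 members as higher in MPPs (58.4%). The count is no separate support, since the rule fixed presence in the MPP WT lists and nearly all members had peaks in the KO lists, so it restates the absence of LT-HSC peaks. Leaving out any 1 of the 9 libraries took it to 0.0%, because the smaller design cannot pass the adjustment. Over the whole table the test called 31.9% of the 52020 regions held by 3 to 6 libraries and 17.3% of all 95786 regions held by 2 or more, and it called 0.442% of those tested in the LT-HSC direction. Of the members, 712 were in the tested range and 177 outside it. The 1 region without LT-HSC peaks that was not called was the one at Dntt, which MPP KO 1 lacked.

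The strongest members without an LT-HSC peak lay near Dctn6, Capn13, Etv3l, Herpud1, Hdac4 and Sowahc. The region near Hdac4, a histone deacetylase gene, chr1:92216684-92217150, ranked 26765 and 23096 in KO MPPs, against 11588 and 12122 in WT MPPs. The region near Herpud1, a gene of the endoplasmic reticulum stress response, ranked 29438 and 23746 in KO, against 10427 and 13096 in WT. At the other end, a region near B3gnt2, a glycosyltransferase gene, chr11:22813418-22814341, ranked 22716 and 25856 in MPP KO and 15918 and 12766 in MPP WT. In LT-HSCs it was among the strongest, at 4038, 1601 and 1711 in KO and 3103 and 3505 in WT. Regions at Wasl, Ttpa, 6430571L13Rik, Angpt1 and Vps13d were also in all 5 LT-HSC top sets.

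In LT-HSCs the genotype order of the members was mixed. Of the 889 members, 5 were in the top set of all 3 LT-HSC KO libraries and of no WT library (0.562%, 0.240% to 1.31%), against 563 of all 33950 regions (1.66%). In both WT top sets and no KO top set were 10 members (1.12%, 0.612% to 2.06%), against 707 of all regions (2.08%). Few members were in any LT-HSC top set. Of the 164 that were in at least 1, the shares were 3.05% (1.31% to 6.94%) and 6.1% (3.35% to 10.9%), against 1.95% and 2.45% of the 28856 such regions overall. Members were thus below all regions on the first base and above them on the second. An exact permutation test of 3 against 2 libraries cannot go below p = 0.1, so single regions were not tested. The 10 were assigned to Micall2, Llgl1, Nfic, Abca1, Tbk1, Lrrc10b, Casp8, Sik1, Gm572 and Ldb1, named after their values were seen. In these both cell types placed KO below WT, which the rule fixed in MPPs and the choice of the 10 fixed in LT-HSCs. Ldb1 encodes a cofactor of LIM-domain and GATA factors; its region ranked 24781 and 25098 in MPP KO and 22643 and 22186 in MPP WT. In LT-HSCs the Ldb1 region had no peak in KO 1 and KO 2 and ranked 24870 in KO 4, against 13756 and 13423 in WT.

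The list of RXR partners and targets held 9 members on 7 of its 30 genes with an analysed region. That was 7.38% of the list's 122 regions against 2.62% of all regions. By genes it was 23.3%, against 5.77% of all 13532 genes with an analysed region, a share that most lists passed, such as cytokine receptors and integrins (25.0%), inflammation genes (17.4%) and HSC identity genes (13.6%). The list also held 5 regions ranked up in KO, on 4 genes (4.1% of its regions, against 2.49%, and 13.3% of its genes, against 5.5%). Lists and regions were chosen with results of these data known, and no test was run over a list.

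At Abca1, the cholesterol exporter that is a main LXR target, the member was intragenic, chr4:53115900-53116261, 43.9 kb from the nearer gene end. It ranked 52685 and 65588 in KO MPPs, against 20260 and 18165 in WT MPPs. In LT-HSCs it had no peak in KO 1 and KO 2 and ranked 52556 in KO 4, against 12596 and 11825 in WT. In MPPs the rule fixed that KO and WT did not overlap. They did not overlap in LT-HSCs either, where that top-set pattern was seen at 2.08% of all regions, as above. Another Abca1 region, chr4:53106802-53107211, went the other way, at 19483 and 20554 in KO MPPs, against 37253 and 56718 in WT MPPs, with no LT-HSC peak.

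Mylip encodes the ubiquitin ligase that degrades the LDL receptor and is another LXR target. Its member, chr13:45391574-45391907, 2.00 kb from a gene end, ranked 42685 and 44180 in KO MPPs, against 18891 and 16031 in WT MPPs. In LT-HSCs it had no peak in KO 1 and KO 2 and ranked 19103 in KO 4, against 4601 and 5343 in WT. KO 4 kept the Mylip region in its top set, so it falls outside the top-set pattern given for Abca1. How many of all regions had WT LT-HSC ranks better than every KO rank, as here, was not counted. At Abcg1, a cholesterol exporter that works with Abca1, the intragenic member chr17:31074589-31074978 ranked 26511 and 24300 in KO, against 20520 and 19732 in WT, with no LT-HSC peak.

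Of the PPAR-linked genes, Plin2, which coats lipid droplets, and Cd36, a fatty acid receptor, had 2 members each. The other Plin2 member, chr4:86632417-86632872, ranked 25555 and 29834 in KO, against 15615 and 18728 in WT. The first Cd36 member, chr5:17854258-17854984, ranked 29369 and 27449 in KO, against 16575 and 18032 in WT, and neither of these had an LT-HSC peak. The second Cd36 member, chr5:17839554-17839970, ranked 25576 and 27595 in MPP KO and 20726 and 21914 in MPP WT. Every LT-HSC library held the second one, at 16154, 16064 and 24146 in KO and 26472 and 22025 in WT, where 2 of 3 KO ranks were better than both WT ranks. The order of ranks in LT-HSCs at this region was thus not that of MPPs, but the LT-HSC lists differ in length. Fold enrichment there was 5.8, 9.22 and 12.86 in LT-HSC KO, against 8.16 and 4.09 in LT-HSC WT.

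The receptor genes themselves gave 2 members. The region near Pparg, chr6:115330983-115331379, ranked 25395 and 28825 in KO, against 19749 and 22606 in WT. The region near Nr4a1, an orphan receptor that can pair with RXR, chr15:101252618-101253000, ranked 36651 and 28193 in KO, against 21320 and 17536 in WT. Neither had an LT-HSC peak, and a neighbouring Nr4a1 region, chr15:101253720-101254393, ranked 18548 and 19841 in KO, against 33886 and 31310 in WT. Rxra, Rxrb, Rxrg and Myc had 3, 1, 4 and 5 analysed regions and no member.

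**Figure D3:**
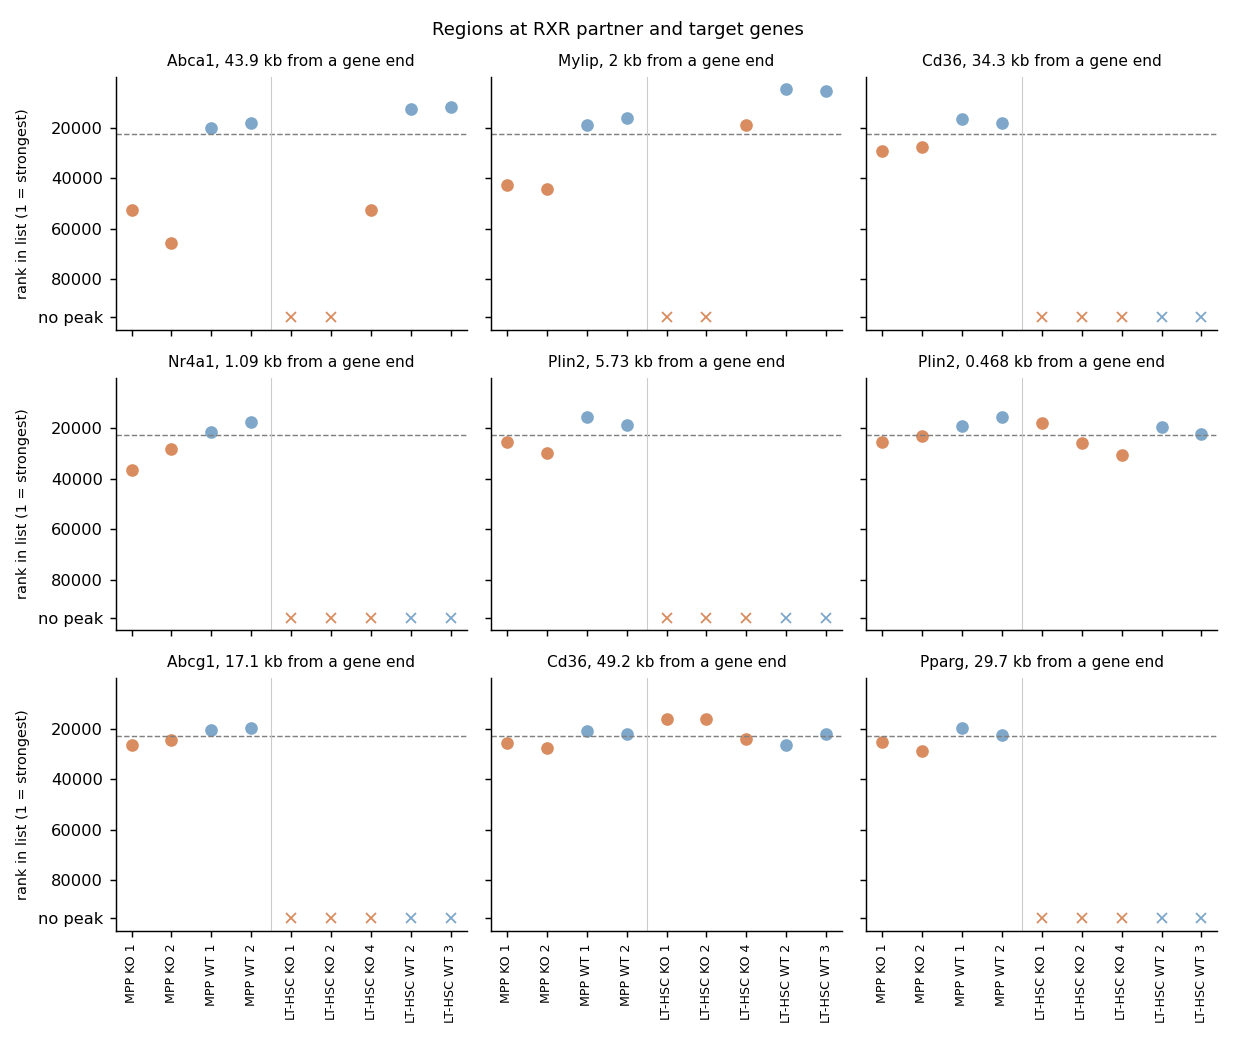
Rank (y axis, strongest at the top; crosses mark no peak) of the 9 members at RXR partner and target genes in each of the 9 libraries, KO in orange and WT in blue, with the top-set limit dashed. The Abca1 and Mylip regions have the widest margins in MPPs, and 5 of the 9 have no peak in any LT-HSC library.

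Both lists of myeloid genes had a larger share of members than all regions did. The mature myeloid and macrophage list gave 4 of 41 regions (9.76%, against 2.62%) and no region ranked up in KO. Marco, a macrophage scavenger receptor gene, had 2 of them, both outside the gene. The region chr1:120532475-120532941, 27.7 kb from its nearer end, ranked 33933 and 26455 in KO, against 14764 and 12039 in WT. The region chr1:120467368-120467696, at 7.01 kb, ranked 30700 and 23564, against 17518 and 20956. Fold enrichment at this second region was 11.76 and 16.67 in KO, against 18.22 and 15.12 in WT, so KO and WT overlapped by that measure. At the first region it was 12.08 and 17.36, against 21.68 and 23.7. Tlr4, the lipopolysaccharide receptor gene, had an intragenic region at 26160 and 22848 in KO, against 13581 and 16687 in WT. A region outside Tlr2, 3.53 kb from its nearer end, ranked 23562 and 23713 in KO, against 18455 and 17831 in WT. None of these 4 had a peak in any LT-HSC library. By the gene that contains the midpoint only, 1 of the list's 9 genes with such a region had a member.

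The list of myeloid transcription factors and priming genes gave 4 of 70 regions (5.71%), assigned to Mpo, Csf3r, Cd33 and Ms4a3, with 3 regions ranked up in KO (4.29%). The region near Cd33, a myeloid lectin gene, lay 8.76 kb outside it. It ranked 28480 and 30473 in KO, against 16829 and 18439 in WT. The region near Csf3r, the G-CSF receptor gene, lay 4.32 kb outside it and ranked 29259 and 22961, against 19109 and 20407. Fold enrichment at the Csf3r region was 11.56 and 14.49 in KO, against 14.44 and 13.41 in WT, so KO and WT overlapped by that measure. At the Cd33 region it was 8.54 and 8.5, against 11.79 and 10.56. Of the 4, the Mpo region alone had an LT-HSC peak. By the gene that contains the midpoint only, 0 of this list's 9 genes with such a region had a member. Beside these lists, 1 and 1 of 6 myeloid marker genes had a top-set peak within 1 kb of a gene end in KO MPPs, against 2 and 3 in WT MPPs, and 0 in every LT-HSC library. Mpo is among the 6, and its values were fixed by the rule, since the region at its promoter is a member; without Mpo the counts were 1 and 1 in KO, against 1 and 2 in WT. Csf1r was held in all 4 MPP libraries and Elane in MPP WT 2, while Itgam, Ly86 and Cebpe were at 0 in all 9. Of the 10 HSC and MPP markers, 6 and 6 were held in KO MPPs and 5 and 6 in WT MPPs, and of 5 B cell markers 0 in all 4. Of 5 stromal and endothelial markers, 1 and 1 were held in KO MPPs (Pdgfrb in KO 1, Pecam1 in KO 2), against 0 and 0 in WT MPPs, and of 5 erythroid markers 1 and 2, against 2 and 2. T cell markers were at 1 of 5 in all 4, and the neuronal and hepatic controls at 2 and 2 of 4 in KO, against 2 and 1 in WT. The part of other cell types in these results was not tested.

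Cytokine receptors and integrins gave 5 of 74 regions (6.76%), among them regions assigned to Ifngr1 (from 85.3 kb outside it), Itgb2, Il4ra and Il1r1. The list also had 3 regions ranked up in KO (4.05%, against 2.49%). Il4ra and Il1r1 each had a region in both directions. The region inside Itgb2, which encodes the shared beta chain of leukocyte integrins, ranked 31421 and 32859 in KO, against 21717 and 19395 in WT. The list of inflammation, NF-kappa-B, IRF and STAT genes gave 4 of 95 (4.21%) and 2 ranked up (2.11%). The 4 were assigned to Irf7, Irf2 (from 45.7 kb outside it), Irf1 and Stat5b, each also held by at least 1 LT-HSC library. The Irf1 region ranked 30704 and 41794 in KO, against 22425 and 20973 in WT. Lymphoid genes gave 3 of 101 (2.97%), at Dntt, Foxp1 and Notch2, none with an LT-HSC peak, and 2 ranked up (1.98%). The Notch2 region ranked 27492 and 32909 in KO, against 16784 and 19276 in WT.

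Stem cell lists were near or under the share of all regions. HSC identity genes gave 3 of 133 (2.26%), at Kit, Fli1 and Angpt1, and 6 ranked up in KO (4.51%). The region near Kit, the stem cell factor receptor gene, chr5:75671092-75671772, ranked 24501 and 32636 in KO, against 16923 and 17051 in WT, with no LT-HSC peak. The region at Angpt1, a niche ligand gene, ranked 23658 and 23016 in MPP KO and 19414 and 21416 in MPP WT, and was in the top set of all 5 LT-HSC libraries. HSC quiescence and niche genes gave 1 of 95 (1.05%) and 5 ranked up. Erythroid and megakaryocyte genes gave 2 of 41 (4.88%), at Nfe2 and Ank1, and 5 ranked up (12.2%).

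The remaining lists gave 0 to 2 members each. Cell cycle genes gave 0 of 64, the MYC network 1 of 47 (2.13%, near Mycl) and MYC target genes 2 of 43 (4.65%, at Fbl and Eno1), with 1, 3 and 2 regions ranked up. The region near Mycl, a MYC family gene, ranked 34492 and 36246 in KO, against 21587 and 21738 in WT. AP-1 and immediate early genes gave 2 of 78 (Batf and Ier2) with 2 ranked up, lipid and mitochondrial genes 1 of 42 (Polg) and chromatin regulators 1 of 63 (Hdac4). Markers of T cells gave 1 of 9 (near Cd28), stromal and endothelial markers 1 of 41 (Pecam1), B cell markers 0 of 8 and the neuronal and hepatic control 0 of 10. Stromal and endothelial markers and B cell markers had 1 region each ranked up, and the lipid and mitochondrial, chromatin, T cell and control lists had 0. In all, 40 listed genes had a member.

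**Figure D4:**
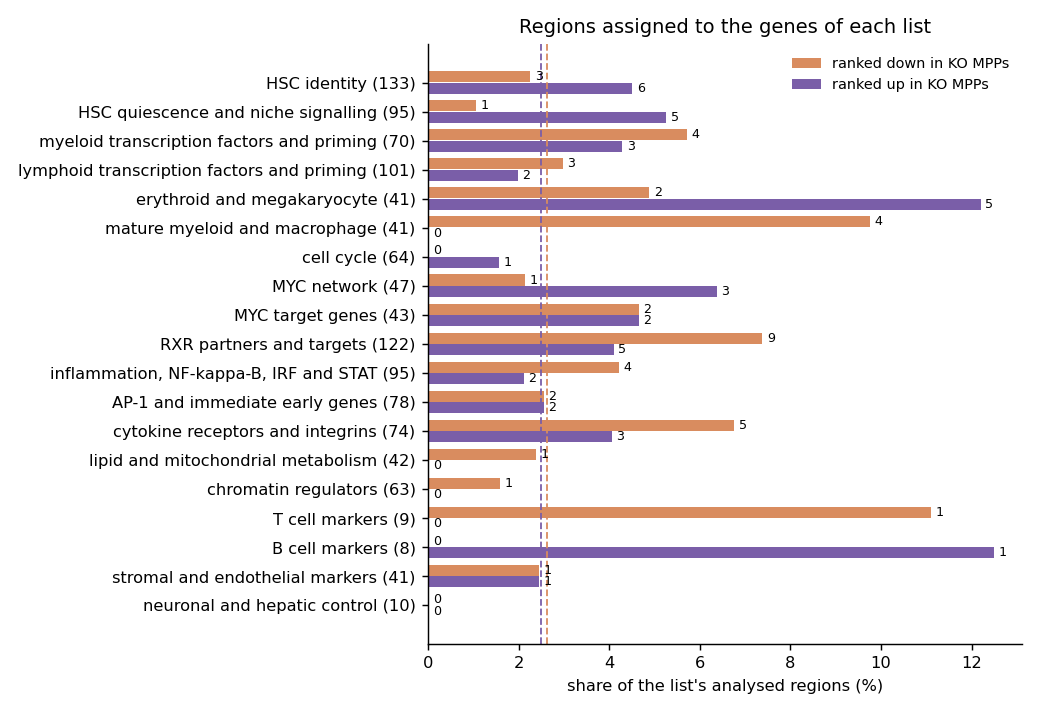
Share of each list's analysed regions (x axis, %; number of regions in brackets, number of members or regions ranked up at the bar end) among members and among regions ranked up in KO MPPs; dashed lines are the shares over all regions, 2.62% and 2.49%. The mature myeloid and macrophage list (9.76%) and the RXR list (7.38%) have larger shares of members than the line, and the T cell bar rests on 1 of 9 regions.

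Members lay away from gene ends. Within 1 kb of an end of a protein-coding gene were 101 of 889 (11.4%, 9.44% to 13.6%), against 12.2% of regions ranked up in KO, 21.6% (20.3% to 22.9%) of regions of like WT rank and 29.3% (28.9% to 29.8%) of all analysed regions. The median distance to a gene end was 13.9 kb for members, 15.9 kb for regions ranked up, 9.96 kb for regions of like WT rank and 8.10 kb for all. The largest bin, 10 to 50 kb, held 37.1% of members. Inside a gene lay 53.2% of members, outside but within 100 kb of one 39.7%, and 63 (7.09%) were assigned to no gene. The members' interval did not overlap that of regions of like WT rank and overlapped that of regions ranked up (10.1% to 14.6%).

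**Figure D5:**
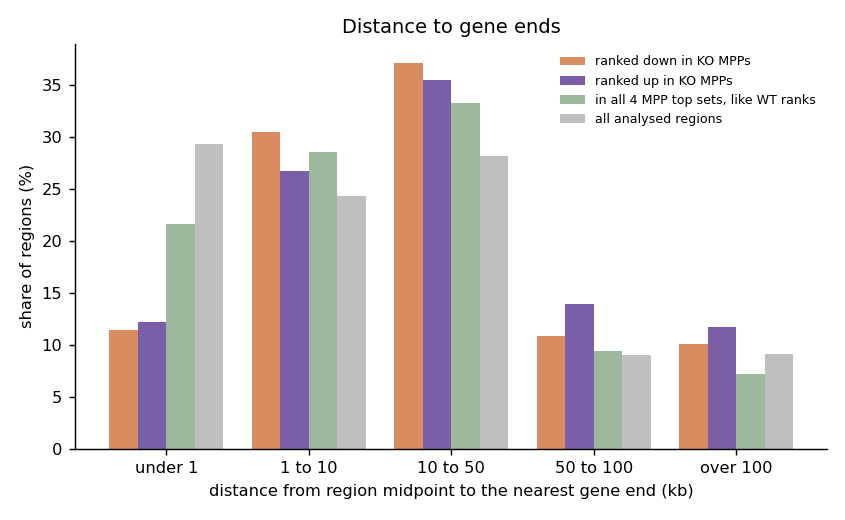
Share of regions (y axis, %) by distance from the midpoint to the nearest gene end (x axis, kb) for members and the comparison sets. Members and regions ranked up in KO MPPs have low shares under 1 kb (11.4% and 12.2%), against 21.6% and 29.3% in the other sets.

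Members were spread over the genome. Another member lay within 50 kb of 97 of them and within 10 kb of 20, and the median distance to the next member was 469 kb. Within 10 kb of a region in all 4 MPP top sets lay 295 members (33.2%), against 31.7% of the regions ranked up. By chromosome, members made up between 1.77% (chromosome 7) and 3.85% (chromosome 13) of analysed regions. Merged regions were 437 bp wide at the median, against 492 bp for regions ranked up and 511 bp for regions of like WT rank. Width is that of merged top-set peaks. Among MPP lists, members merged peaks of both WT lists, and regions of like WT rank merged those of all 4. Members also had fewer LT-HSC top-set peaks to merge. The part of these in the widths was not tested.

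The 826 assigned members fell on 781 genes, of which 737 had 1 member and 44 had more, with 3 assigned to Il12a. Il12a encodes a subunit of interleukin 12. Outside the gene, 73.5 kb from its nearer end, chr3:68771637-68772375 ranked 26499 and 24172 in KO, against 18278 and 17441 in WT. At 80.1 kb, chr3:68778391-68779005 ranked 29585 and 28789 in KO, against 21518 and 20863 in WT. Both were assigned to Il12a only as the gene with the nearest end. The intragenic Il12a region ranked 23386 and 27653 in KO, against 22648 and 22074 in WT, and was the one held by LT-HSC top sets. Pik3cd, the leukocyte PI 3-kinase catalytic subunit gene, had one region at 26080 and 24560 in KO, against 15017 and 10663 in WT, and one at 25739 and 27917, against 16317 and 18174. Marco, Smap2, Snx29, Ppp2r5a, Igfbp7, Dgki, Ankrd44, Slc22a15, Plin2 and Cd36 had 2 members each and, with Il12a and Pik3cd, are the 12 named here; they were taken from the genes tied at 2 by the better mean WT rank of a member. Of the 781 genes, 78 also had a region ranked up in KO (9.99%, and 10.5% of the 744 genes with such a region), against 5.5% of all genes with an analysed region. Genes with more analysed regions can more easily have regions of both kinds, and the number of regions per gene was not taken into account. The shares thus do not show that both directions gather on the same genes.

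Promoter windows overlapped few members. Of the members, 63 overlapped 72 windows of 64 genes, among 20085 windows of 16457 genes analysed. Motifs were searched on both strands as letters. AGGTCA was in 10 of 72 windows (13.9%, against 14.7% of all windows and 11.3% of the windows of regions ranked up), and direct repeats of AGGTCA with 1, 4 or 5 bases of any kind between the copies were in 0 (0.0448%, 0.0% and 0.00498% of all windows). TTGCNNAA, the C/EBP letters, was in 15 (20.8%), against 10.3% of all windows, 9.86% of those of regions ranked up and 7.61% of those of regions in all 4 MPP top sets. CACGTG was in 10 (13.9%), against 7.89%, 5.63% and 11.0% in the same order. In that order again, TGTGGT was in 4 (5.56%), against 14.8%, 15.5% and 11.8%, and AGATAA in 2 (2.78%), against 9.57%, 9.86% and 4.71%. TGANTCA was in 4 (5.56%), against 7.06%, 5.63% and 3.78%, and GAGGAAGT in 3 (4.17%), against 3.18%, 5.63% and 3.28%. A match is a run of letters in a fixed window, not a bound site, and most members lie outside these windows.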

How the data were processed

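ATAC-seq peak lists of 9 libraries were used as deposited, 1 list per library. Per the submitters' processing notes, the build was mm10 and the tools, whose roles are not stated, included MACS2 2.1.1, Bowtie2, cutadapt 1.7, SAMtools 0.1.18, HOMER 4.10.3 and DiffBind 2.6.6. The sources used here do not give the Tn5 shift of reads or the duplicate filter. For each peak the authors deposited its positions, a display score, the −log10 of its p-value and of its q-value, and its fold enrichment, a ratio to local background. The authors' −log10 q, then fold, ranked peaks within a list, and these values are used only to rank, filter or describe peaks of that list. Read counts were not used, so the depth of each library is unknown.

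From the lists, the 22690 strongest peaks per library were merged by an overlap of 1 bp with Python 3.11.15, pandas 2.3.3 and scipy 1.17.1. A region was assigned to the protein-coding gene (chromosomes 1 to 19, 20665 genes of GRCm38.p6) that contains its midpoint, otherwise to the nearest gene end within 100 kb. Presence in full lists was tested for cell type by two-sided Fisher's exact tests. These ran over 52020 regions held by 3 to 6 libraries, with Benjamini-Hochberg adjustment and a threshold of 0.05. The test was run on simulated data in which each region had an equal chance of presence in every library, apart from regions set to be in MPPs only. That check does not cover lists of unequal length, as used here. Wilson intervals (95%) cover counting error only, and p-values reflect only how these libraries vary, which can be technical.

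Named genes are 12 with most members (ties by the better mean WT rank of a member), up to 3 per list, the 6 widest margins, the 3 regions on either side of the limit, 6 in most LT-HSC top sets, the 6 strongest without an LT-HSC peak, and Rxra, Rxrb, Rxrg and Myc. Other names were chosen after their values were seen, as were genes past the 3 of a list, and 1 gene that the rule takes is not reported here. The members, lists and naming rule were chosen with earlier results of these data known. Replicate numbers were not shown to pair the MPP libraries. Start-site windows of chromosome 18 were not analysed here. Alternatives varied the top-set length, ranking measure, overlap, q minimum, libraries left out and gene assignment.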

Additional observations from a re-analysis of the deposited data

Results flagged for a closer look

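At 5 members the LT-HSC libraries were ordered against the MPP libraries: all 3 LT-HSC KO libraries had a top-set peak and neither LT-HSC WT library did, whereas in MPPs KO ranked below WT. That is 0.562% of the 889 members, against 1.66% of all analysed regions, which could enter through LT-HSC top sets alone. The LT-HSC pattern was seen at 0.517% of regions in all 4 MPP top sets and 0.999% of regions of like WT rank. Among regions in at least 1 LT-HSC top set it was seen at 3.05% of members, 1.36% of regions of like WT rank and 1.95% of all. Members were thus below or above the other sets depending on the base. The difference between the cell types was not tested, and the MPP side was fixed by the choice of regions. The poorest LT-HSC KO rank was 22355 at the region near Slamf9, a gene of the SLAM receptor family, where LT-HSC WT 2 ranked 25730 and LT-HSC WT 3 had no peak. It was 14074 at Zgrf1, where LT-HSC WT 2 ranked 23324, and 17232 near Gm826, where it ranked 47118. Near Akr1e1, an aldo-keto reductase gene, it was 14978, against 24622 in LT-HSC WT 2. At Plac8 it was 19160, against 26480 in LT-HSC WT 2. LT-HSC WT 3, the shorter WT list, had no peak at any of the 5.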

How the results depend on the processing

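The number of members moved from 889 to 556 with a top set of 15000 peaks, 1218 with 30000, 957 when peaks were ranked by fold, 939 with 200 bp summit windows and 867 with a −log10 q of at least 3. Leaving out 1 library gave 343 to 1465 members, 11.3% to 32.7% near gene ends, 4.38% to 39.5% in at least 3 LT-HSC top sets, and 0.0% to 67.1% without an LT-HSC peak. The lowest number, 343, was without MPP WT 2 and 425 without MPP WT 1, against 1465 and 1462 without MPP KO 1 and MPP KO 2. With 1 MPP WT library left, the minimum of 2 libraries requires an LT-HSC top-set peak, so 0.0% is by construction. Without that minimum, an alternative chosen after seeing the data, leaving out MPP KO 1, KO 2, WT 1 or WT 2 gave 1465, 1462, 1675 or 1612 members. Near gene ends these were 14.6%, 14.0%, 16.4% or 11.5%, in at least 3 LT-HSC top sets 11.9%, 12.2%, 10% or 8.19%, and without an LT-HSC peak 48.4%, 48.1%, 47.6% or 51.8%. The share without an LT-HSC peak, whose alternatives were also chosen after seeing the data, was 45.9% with 15000 peaks, 64.8% with 30000 and 67.1% without LT-HSC KO 4. For regions ranked up in KO it ranged from 1.35% to 6.97%, apart from 0.0% without an MPP KO library, again by construction. Calls of the cell type test fell to 0.0% to 0.0% without any 1 library, since the smaller design cannot pass the adjustment. Near gene ends were 13.8% with 15000 peaks, 9.20% with 30000, 13.8% with summit windows and 27.3% within 5 kb. In LT-HSC top sets were 3.45% with 30000 peaks (3 lists are that long), 18.4% for at least 1 list and 0.787% for all 5. With the gene that contains the midpoint only, 22 listed genes had a member. The replicate block, taking libraries of 1 number alone, gave 1866 and 1949 members for numbers 1 and 2, 15.1% and 18.7% near gene ends, and 16.8% and 16.9% in at least 3 LT-HSC top sets. Deviations of same-numbered MPP libraries had a correlation of -0.0855 over 18777 regions, and the labels give no pairing. With 2 libraries per MPP group and unknown depth, a difference in rank cannot be told apart from a difference between these libraries.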
